A study of Mus musculus with 18 samples.

Results

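The genes described here are 41 mouse genes that encode the machinery of chromosomal DNA replication and the enzymes that make its nucleotides. They were listed by function, and the list was chosen with earlier results of these data known. A listed gene was measured where a probe that the platform annotation gives to it alone had a detection p under 0.01 on at least 3 of the 18 arrays, and 37 of the 41 met this, of 12094 genes tested in all. Gmnn (geminin, an inhibitor of Cdt1), Pola1 (the catalytic subunit of DNA polymerase alpha), Prim1 (the catalytic subunit of primase) and Pole2 (a subunit of DNA polymerase epsilon) had probes that were detected on 0 arrays and were not measured here. By role, the 37 comprise 10 genes of origin licensing, 4 of helicase activation, 5 of polymerases and primase, 6 of the sliding clamp and its loader, 3 of the single-strand binding protein RPA, 2 of lagging-strand maturation, 5 of nucleotide synthesis and 2 of the chromatin assembly factor CAF-1.

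Total RNA from C57/BL6 mice was profiled on Illumina BeadChips from Th1 cells, Th2 cells, dendritic cells, B cells, whole brain and naive CD4 T cells, with 3 arrays a group that the design text describes as biological replicates. The 5 immune groups were described as wild type and came from males and females together, whereas brain came from males, so that tissue and sex cannot be told apart in a comparison with brain. The labels name no allele, treatment, time, age, sorting marker, culture or stimulus for any group. Levels are given below as log2 signal after background correction, addition of an offset of 16 and quantile normalization. A gene is said to have risen or fallen where limma's Benjamini-Hochberg adjusted p was under 0.05 and the fitted difference was at least 2-fold (1 on the log2 scale).

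In eukaryotes, an origin is licensed in G1 when the origin recognition complex, Cdc6 and Cdt1 load the ring of Mcm2 to Mcm7, the core of the replicative helicase. In S phase Cdc45, the GINS complex and Mcm10 turn that ring into an active helicase, polymerase alpha with primase starts each strand, and polymerases delta and epsilon extend it on the Pcna clamp that replication factor C loads. Resting lymphocytes and neurons do not replicate their genomes, whereas T cells that respond to antigen divide rapidly, and in mammals many of these genes are transcribed under E2F factors as cells leave quiescence.

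The arrays detected between 12564 and 20497 of 45281 probes, and the median of the 12094 genes lay between 6.36 and 6.58 on the log2 scale on every array. The defining markers of each label were detected: each array of Th1, Th2 and naive CD4 T cells detected 6 of 6 measured T-cell markers, each B-cell array 4 of 4 measured B-cell markers, each dendritic-cell array 6 of 6 measured dendritic-cell markers, and each brain array 3 of 3 measured neuronal and 4 of 4 measured glial markers. Of the 6 dendritic-cell markers, 5 rose and 1 fell (-1.40) in dendritic cells against naive CD4 T cells. Against B cells 5 rose and 1 fell (-1.23). The dendritic-cell arrays also carried all 6 granulocyte markers (summed signal 36260.1 to 49755.5, against 116.1 to 292.8 in naive CD4 T cells), all 4 measured macrophage markers (7488.6 to 10594.5, against 80.0 to 192.6), 3 of 4 B-cell markers (1753.2 to 3674.8, against 128.2 to 252.8, with Pax5 undetected), 3 of 3 measured markers of NK and CD8 T cells (2228.7 to 2469.9, against 923.7 to 1707.2) and both measured erythroid markers (1900.6 to 9425.6, against 81.9 to 235.0). T-cell markers were detected outside T cells too. All 6 were detected in dendritic cells (2195.7 to 3097.8) and 5 of 6 in B cells (412.9 to 905.1, with Cd4 undetected), against 36163.2 to 37692.1 in naive CD4 T cells. The brain arrays carried both measured erythroid markers (13220.1 to 18963.7, against 81.9 to 235.0 in naive CD4 T cells). The part of these other cells in the results on dendritic cells, B cells and brain was not tested. In such bulk RNA, fewer cells of a type and less RNA per cell cannot be told apart.

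Promoter windows of 300 bases, 250 before to 50 after the transcription start, were read from RefSeq (GRCm38.p6) and matched 31 of the 37 measured genes by symbol, with 36 windows in all. Mcm4, Gins1, Gins2, Prim2, Pole, Rfc2 and the unmeasured Gmnn had no entry. Each window was searched on both strands for the E2F words TTTCCCGC, TTTGGCGC, TTTCGCGC and TTTGCCGC, which can overlap each other, and for CCAAT. An E2F word stood in 10 of 36 windows (27.8%), against 744 of 32851 windows of all RefSeq genes (2.26%) and 455 of 12527 windows of the genes tested (3.63%). CCAAT stood in 20 of 36 windows (55.6%), against 37.4% of all windows and 37.0% of those of tested genes. A match is a run of letters and not a measured binding site. The 5 windows below, written 5′ to 3′ along the gene with E2F words in capitals, are shown because their genes mark the range of responses: Orc1, Cdc6 and Mcm10 rose in Th1 and Th2 cells, whereas the probes chosen for Mcm6 and Mcm7 did not pass the test there. They lie at chr4:108579204-108579503 (plus strand, Orc1), chr11:98907901-98908200 (plus strand, Cdc6), chr2:5012742-5013041 (minus strand, Mcm10), chr1:128359656-128359955 (minus strand, Mcm6) and chr5:138171834-138172133 (minus strand, Mcm7).
Orc1: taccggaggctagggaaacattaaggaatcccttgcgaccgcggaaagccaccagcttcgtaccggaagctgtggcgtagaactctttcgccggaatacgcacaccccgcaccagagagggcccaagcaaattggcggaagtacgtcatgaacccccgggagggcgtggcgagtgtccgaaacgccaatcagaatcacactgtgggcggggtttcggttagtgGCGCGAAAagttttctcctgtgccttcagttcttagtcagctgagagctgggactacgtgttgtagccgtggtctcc
Cdc6: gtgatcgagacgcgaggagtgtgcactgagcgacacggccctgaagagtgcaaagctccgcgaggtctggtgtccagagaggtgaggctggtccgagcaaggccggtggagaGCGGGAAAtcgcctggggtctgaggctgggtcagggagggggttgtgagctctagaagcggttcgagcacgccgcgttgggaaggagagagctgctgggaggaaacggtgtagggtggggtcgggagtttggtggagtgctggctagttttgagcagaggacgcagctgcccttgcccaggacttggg
Mcm10: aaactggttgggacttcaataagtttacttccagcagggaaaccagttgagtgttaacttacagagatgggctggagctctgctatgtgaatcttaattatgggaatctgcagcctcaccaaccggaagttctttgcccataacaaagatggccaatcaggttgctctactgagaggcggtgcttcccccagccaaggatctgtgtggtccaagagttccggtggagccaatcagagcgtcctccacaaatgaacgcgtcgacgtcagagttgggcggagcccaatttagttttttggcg
Mcm6: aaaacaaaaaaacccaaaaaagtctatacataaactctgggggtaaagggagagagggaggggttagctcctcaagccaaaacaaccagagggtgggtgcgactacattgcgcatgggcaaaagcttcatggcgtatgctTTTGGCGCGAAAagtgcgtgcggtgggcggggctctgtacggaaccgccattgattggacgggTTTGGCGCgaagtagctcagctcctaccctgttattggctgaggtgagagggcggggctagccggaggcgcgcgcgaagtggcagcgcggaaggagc
Mcm7: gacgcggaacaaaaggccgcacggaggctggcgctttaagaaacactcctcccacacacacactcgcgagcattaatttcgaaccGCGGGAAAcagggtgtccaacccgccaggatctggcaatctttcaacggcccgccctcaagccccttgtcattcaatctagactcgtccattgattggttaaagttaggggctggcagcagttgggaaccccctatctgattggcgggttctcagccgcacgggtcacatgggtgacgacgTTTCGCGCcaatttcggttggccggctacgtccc
Mcm6 held 3 E2F words, of which a pair overlapped, Mcm7 held 2 in the window shown, Orc1 and Cdc6 held 1 each, and Mcm10 held 0 beside 3 CCAAT words. The Mcm10 window ends in tttggcg, the start of the word TTTGGCGC. Whether the word is completed past the window's edge was not checked. Another Mcm7 window, from a further transcript start, held CCAAT once and 0 E2F words and is not shown. Of the genes with a window that rose in Th1 cells 6 of 18 held one (Cdc6, Lig1, Mcm3, Mcm5, Orc1 and Rfc3), and of those that did not pass the test 4 of 12 did (Cdt1, Mcm6, Mcm7 and Pold1). In Th2 cells the shares were 5 of 16 and 5 of 14.

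The first comparison set the effector T-helper cells against naive CD4 T cells, the resting cells that they derive from. In Th1 cells 21 of the 37 genes rose and 1 fell, where 13.0% of all genes tested rose and 15.4% fell. In Th2 cells 19 rose and 1 fell, where 12.6% of all genes tested rose and 14.4% fell. The median difference over the 37 genes was 1.08 in Th1 cells (1.04 with the undetected naive levels at their detection bound) and 1.12 in Th2 cells (0.97 at the bound), while the median of all genes tested was -0.02 and -0.01. Both comparisons share the naive arrays. Orc1 passed the detection filter through Th1 and Th2 arrays alone, so that its rise there was fixed by the filter, and Cdc6, Gins2, Rfc3 and Pcna were likewise undetected on all 3 naive arrays. The counts and medians over the 37 genes that passed are therefore given as a description. Processing alternatives were no background correction, an offset of 50, median scaling, cyclic loess scaling, the authors' scaled signal, the mean of a gene's probes and other forms of the fit. Under every one of them 10 of the 21 genes that rose in Th1 cells kept the call (Cdc6, Cdc45, Gins2, Mcm10, Fen1, Tyms, Rrm1, Rrm2, Tk1 and Chaf1a), as did 13 of the 19 in Th2 cells (the same 10 with Gins1, Mcm3 and Mcm5). Losses for the other genes stand beside their values below.

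**Figure D1:**
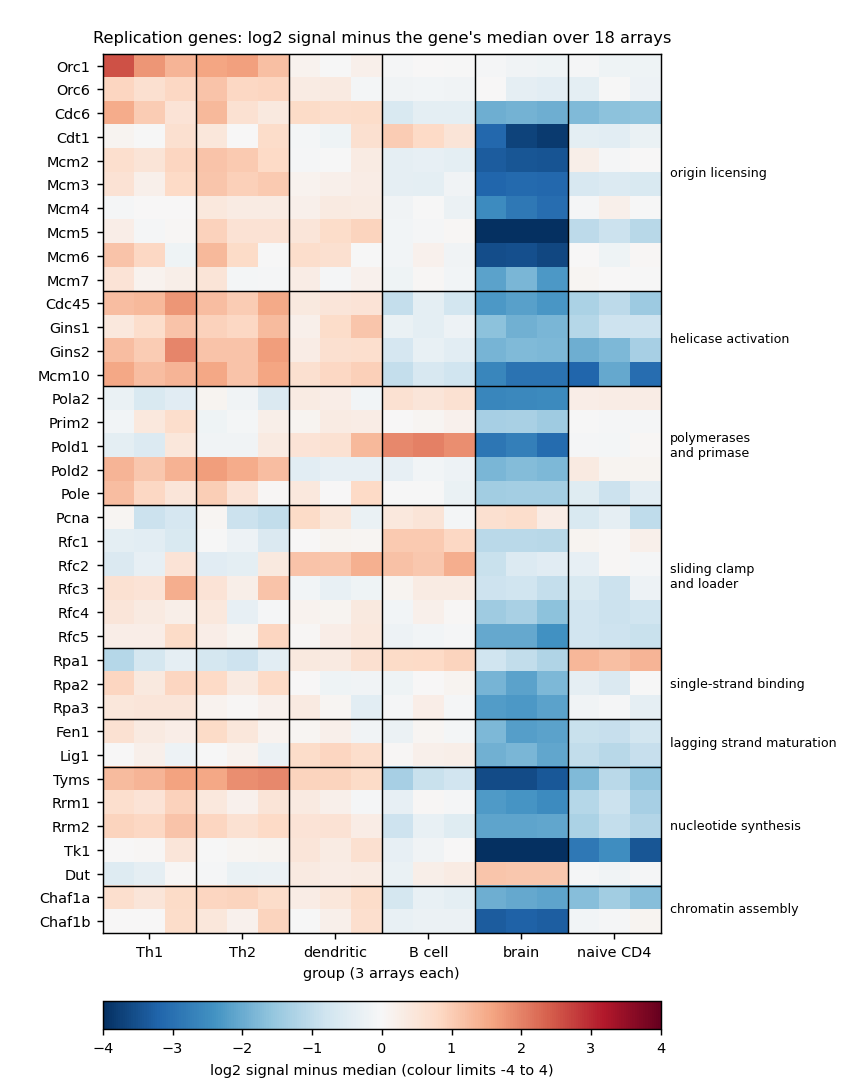
Level of each of the 37 measured genes (rows, in blocks by role) on each of the 18 arrays (columns, by group), as log2 signal minus the gene's median over all arrays; the colour scale runs from -4 to 4. Orc1, Cdc45, Gins2, Mcm10, Pold2 and Tyms lie on the high side in Th1 and Th2 cells, Pold1 and Rfc2 in B cells and Rpa1 in naive CD4 T cells, and 34 of the 37 genes have their lowest group mean in brain.

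All 4 genes of helicase activation rose in both effector groups. Mcm10, a scaffold that helps start unwinding, had log2 signals of 9.12, 8.78 and 8.93 in Th1 cells and 9.11, 8.69 and 9.13 in Th2 cells, against 4.41, 5.51 and 4.52 in naive CD4 T cells, where it was detected on 1 of 3 arrays. Every effector array lay over 3 log2 units above every naive array, and the rise was 4.14 ± 0.23 (SE) in Th1 cells (limma adjusted p = 1.48e-10) and 4.17 ± 0.23 in Th2 cells (adjusted p = 1.51e-10). Cdc45, which binds the Mcm ring to form the active helicase, stood at 8.0, 8.06 and 8.53 in Th1 cells and 8.0, 7.79 and 8.27 in Th2 cells, against 5.51, 5.72 and 5.30 in naive cells. The groups did not overlap, and Cdc45 rose by 2.69 ± 0.17 (adjusted p = 8.99e-10) and 2.51 ± 0.17 (adjusted p = 2.21e-09). The GINS subunit gene Gins2 stood at 7.43, 7.21 and 8.17 in Th1 cells and 7.34, 7.35 and 7.89 in Th2 cells and was undetected in naive cells, so its rise is a bound, at least 5.26-fold in Th1 cells (adjusted p = 4.76e-09) and at least 4.98-fold in Th2 cells (adjusted p = 7.24e-09). Such a bound sets the mean of the detected group against the lowest detected signal of each array of the other group, or against the gene's own signal where that is higher. Calls rest on the fitted difference, which uses signal below detection. A called gene with a bound under 2-fold, here and below, is therefore not shown to differ by 2-fold. Gins1, another GINS subunit, rose by 1.69 ± 0.21 and 1.94 ± 0.21, and was not called in Th1 cells with the authors' signal (0.96).

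Of the 10 genes of origin licensing 4 rose in Th1 cells (Orc1, Cdc6, Mcm3 and Mcm5) and 5 in Th2 cells (the same 4 and Orc6). Cdc6, the loader of the Mcm ring, stood at 7.82, 7.37 and 6.89 in Th1 cells and 7.63, 6.96 and 6.72 in Th2 cells, and was undetected in naive cells at 4.56, 4.71 and 4.75. It was at least 4.44-fold higher in Th1 cells (adjusted p = 1.24e-08) and at least 3.71-fold higher in Th2 cells (adjusted p = 4.7e-08). Orc1, the largest subunit of the origin recognition complex, was detected in Th1 and Th2 cells alone of the 6 groups, at 6.91, 6.12 and 5.73 in Th1 cells and 5.95, 6.0 and 5.56 in Th2 cells. Its lowest effector array still lay above 5.5, and the rises were at least 2.06-fold and at least 1.54-fold. The Orc1 call was lost in Th1 cells with the authors' signal (fitted difference 0.92) and in Th2 cells under 4 alternatives (0.76 to 0.83). Orc6, a small subunit of that complex, had 9.65, 9.41 and 9.61 in Th1 cells and 9.93, 9.62 and 9.63 in Th2 cells, against 8.41, 8.78 and 8.59 in naive cells. Both effector groups lay above every naive array, and the difference passed the fold threshold in Th2 cells (1.13 ± 0.15, adjusted p = 4.62e-06) and missed it in Th1 cells (0.96 ± 0.15, adjusted p = 2.52e-05). Without replicate 2 of Th1 cells or replicate 2 of naive cells, Orc6 passed in Th1 cells too, at 1.04 and 1.06, as it did under cyclic loess (1.04). In Th2 cells it was not called under median scaling (0.80) or with the authors' signal (0.89).

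The 6 subunits of the Mcm2 to Mcm7 ring, which act as 1 complex, included genes that were called and genes that were not. Mcm5 stood at 10.20, 9.90 and 9.99 in Th1 cells and 10.88, 10.53 and 10.52 in Th2 cells, against 8.90, 9.10 and 8.84 in naive cells. It rose by 1.08 ± 0.13 in Th1 cells (adjusted p = 2.29e-06) and by 1.70 ± 0.13 in Th2 cells (adjusted p = 1.18e-08), with no overlap among the 3 groups. Mcm3 rose by 1.13 ± 0.13 and 1.64 ± 0.13. In Th1 cells Mcm5 lay at 1.00 without Th1 replicate 1 and Mcm3 at 0.99 without Th1 replicate 3, just under the threshold. With the authors' signal Mcm5 lay at 0.98 in Th1 cells, and Mcm3 was not called there under 4 alternatives (0.69 to 0.98). Mcm4 stood at 10.63, 10.69 and 10.69 in Th1 cells and 11.10, 11.00 and 11.01 in Th2 cells, against 10.66, 10.88 and 10.69 in naive cells. Its Th1 and naive arrays overlapped, with differences of -0.07 ± 0.12 (adjusted p = 0.69) in Th1 cells and 0.30 ± 0.12 (adjusted p = 0.0524) in Th2 cells. Mcm7 had 7.95, 7.54 and 7.64 in Th1 cells and 7.91, 7.33 and 7.33 in Th2 cells, against 7.47, 7.40 and 7.39 in naive cells, and differed by 0.29 ± 0.16 (adjusted p = 0.159) and 0.10 ± 0.16 (adjusted p = 0.657). Mcm2 differed by 0.61 ± 0.13 (adjusted p = 6.62e-04) and 0.92 ± 0.13 (adjusted p = 1.14e-05), under the fold threshold in both, and passed in Th2 cells at 1.01 without Th2 replicate 3 and at 1.00 without naive replicate 1. Mcm6 had 10.09, 9.76 and 8.78 in Th1 cells and 10.24, 9.70 and 8.94 in Th2 cells, against 8.94, 8.76 and 8.98 in naive cells. The third array of each effector group lay among the naive arrays, and the differences of 0.65 ± 0.31 (adjusted p = 0.0961) and 0.73 ± 0.31 (adjusted p = 0.0618) did not pass. Without replicate 3 of Th1 cells Mcm6 rose by 1.03 (adjusted p = 0.00547), and without replicate 3 of Th2 cells by 1.07 in Th2 cells. With the mean of its probes Mcm6 was called in Th2 cells (1.02).

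These subunits carry other probes, and some of those did pass. For Mcm6, a probe whose mean was 8.88 ± 0.28 (SD, n = 3) in Th1 cells and 8.85 ± 0.29 in Th2 cells, against 7.67 ± 0.25 in naive cells, rose by 1.21 and 1.18. Another Mcm6 probe, at 9.43 ± 0.09 in Th1 cells and 9.48 ± 0.18 in Th2 cells, against 8.33 ± 0.11 in naive cells, rose by 1.10 and 1.15. For Mcm7, a probe at 7.06 ± 0.64 in Th1 cells and 6.86 ± 0.56 in Th2 cells, against 5.67 ± 0.25 in naive cells, rose by 1.40 and 1.19. For Mcm4, a probe undetected in naive cells had fitted differences of 1.31 and 1.22, while another Mcm4 probe (1.06 and 0.91) was not called. The brightest probe stood for each gene here, and the calls on the ring given above hold for those probes alone. Over all 37 genes, 15 had other detected probes, 27 in number, of which 14 had the same call as the chosen probe in Th1 cells and 18 in Th2 cells, and 0 passed in the opposite direction. In Th1 cells the chosen probe alone was called for 9 of them, which were probes of Tyms, Rrm1, Tk1, Rpa2, Lig1 and Rfc4.

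**Figure D2:**
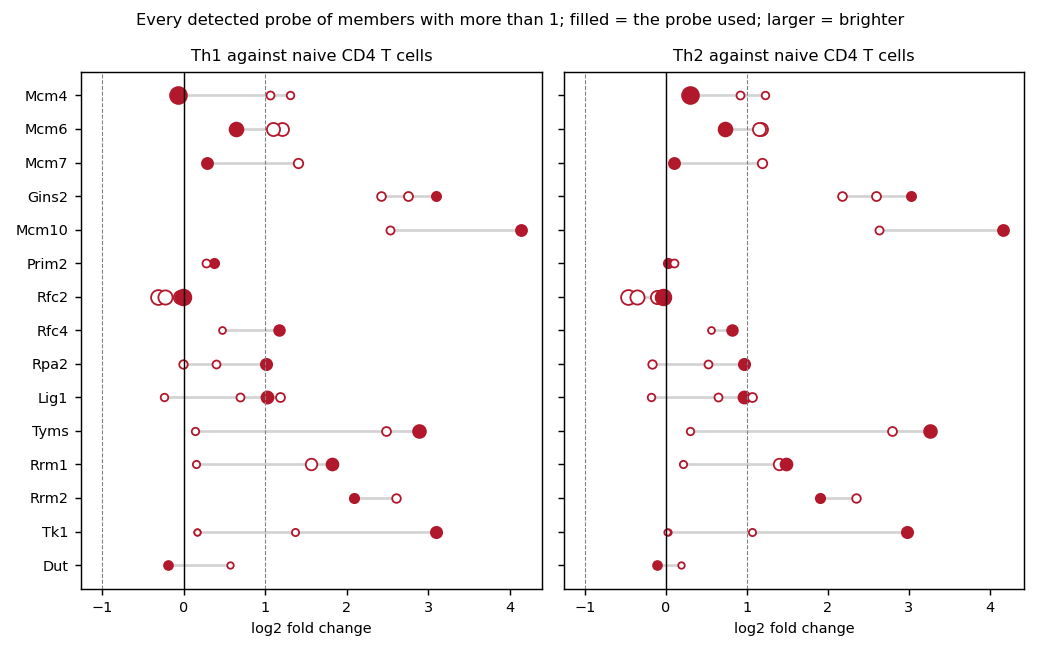
Difference from naive CD4 T cells (log2) of every detected probe of the 15 genes with more than 1, in Th1 and Th2 cells; filled points mark the probe that stands for the gene, and larger points are brighter probes. For Mcm6 and Mcm7 the chosen probe lies below 1 while other probes of the same gene lie at 1.10 to 1.40.

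The polymerase genes were mixed. Of 5 measured, Pold2 (the regulatory subunit of polymerase delta) and Pole (the catalytic subunit of polymerase epsilon) rose in both effector groups. Pold2 had 9.62, 9.36 and 9.66 in Th1 cells and 9.94, 9.77 and 9.52 in Th2 cells, against 8.62, 8.39 and 8.39 in naive cells, and all effector arrays lay above all naive arrays. It rose by 1.08 ± 0.12 (adjusted p = 7.31e-07) and 1.27 ± 0.12 (adjusted p = 1.15e-07), and Pole by 1.43 ± 0.24 and 1.12 ± 0.24. In Th2 cells Pole lay at 0.88 without Th2 replicate 1 and at 0.98 without naive replicate 2, and was then not called. Pole was also not called in Th1 cells with an offset of 50 (0.91) or the authors' signal (0.68), nor in Th2 cells under 4 alternatives (0.57 to 0.76). Pold2 was not called in Th1 cells with the authors' signal (0.88) or in Th2 cells under median scaling (0.95). Pold1, the catalytic subunit that Pold2 partners, had 8.43, 8.26 and 9.26 in Th1 cells and 8.67, 8.67 and 9.17 in Th2 cells, against 8.75, 8.73 and 8.87 in naive cells. The groups overlapped and the differences were -0.13 ± 0.23 (adjusted p = 0.696) and 0.05 ± 0.23 (adjusted p = 0.889). Pola2, the regulatory subunit of polymerase alpha, had 7.12, 6.79 and 6.95 in Th1 cells and 7.49, 7.24 and 6.82 in Th2 cells, against 7.64, 7.70 and 7.70 in naive cells. All 6 effector arrays lay below the naive arrays, with differences of -0.73 ± 0.15 (adjusted p = 5.06e-04) and -0.50 ± 0.15 (adjusted p = 0.00973) that did not reach the fold threshold, except under median scaling, where Pola2 was called lower in both (-1.14 and -1.11). Prim2, the large subunit of primase, differed by 0.38 ± 0.16 and 0.03 ± 0.16 and did not pass.

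Among the clamp and its loader, Rfc3 and Rfc5 rose in both effector groups and Rfc4 in Th1 cells, whereas Pcna, Rfc1 and Rfc2 did not pass. Replication factor C is a complex of 5 subunits, 1 large (Rfc1) and 4 small. Rfc5 had 7.87, 7.88 and 8.38 in Th1 cells and 7.87, 7.73 and 8.47 in Th2 cells, against 6.85, 6.77 and 6.72 in naive cells. The groups were fully apart, and Rfc5 rose by 1.26 ± 0.18 (adjusted p = 1.59e-05) and 1.25 ± 0.18 (adjusted p = 1.94e-05). Rfc4 differed by 1.17 ± 0.16 in Th1 cells and 0.82 ± 0.16 in Th2 cells. Rfc3, undetected in naive cells, was at least 2.08-fold and at least 1.77-fold higher, and its fitted difference in Th2 cells lay at 0.95, not called, without Th2 replicate 3. The Rfc3 call was lost under 4 processing alternatives in Th1 cells (0.53 to 0.96) and 5 in Th2 cells (0.51 to 0.83). Rfc4 was not called in Th1 cells under 5 alternatives (0.67 to 0.97), and its other probe was not called (0.47). Rfc5 was not called with the authors' signal in Th1 cells (0.80), nor in Th2 cells with it (0.81) or under median scaling (0.82). Rfc1, the large subunit, had 7.86, 7.84 and 7.65 in Th1 cells and 8.23, 8.05 and 7.66 in Th2 cells, against 8.36, 8.30 and 8.46 in naive cells, a difference of -0.59 ± 0.13 in Th1 cells and -0.39 ± 0.13 in Th2 cells. Rfc1 thus lay lower on every effector array than on any naive array, by less than the fold threshold. The probe for Pcna, the clamp itself, was detected on 1 Th1 array, 1 Th2 array and 0 naive arrays, and its differences of 0.17 ± 0.32 and 0.06 ± 0.32 did not pass.

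RPA, the trimer that covers single-stranded DNA, held the member that fell. Rpa1, its largest and DNA-binding subunit, had 9.61, 10.06 and 10.38 in Th1 cells and 10.06, 9.92 and 10.33 in Th2 cells, against 12.07, 11.95 and 12.10 in naive cells. Every effector array lay more than 1.5 log2 units below every naive array, and Rpa1 fell by 2.03 on the log2 scale in Th1 cells (SE 0.17, adjusted p = 2.3e-08) and by 1.94 in Th2 cells (SE 0.17, adjusted p = 4.37e-08). The call held under every alternative setting tried in both effector groups, the difference lying between -2.21 and -1.82 in Th1 cells. Rpa2 had 8.27, 7.79 and 8.29 in Th1 cells and 8.22, 7.78 and 8.23 in Th2 cells, against 7.05, 6.85 and 7.41 in naive cells. It rose by 1.01 ± 0.17 in Th1 cells and differed by 0.97 ± 0.17 in Th2 cells, on either side of the fold threshold. Other Rpa2 probes were not called in Th1 cells (-0.004 and 0.40) or in Th2 cells (-0.18 and 0.52). Rpa2 in Th1 cells was not called without Th1 replicate 1 (0.94) or 3 (0.93) or naive replicate 1 (0.99) or 2 (0.89), and in Th2 cells it was called, at 1.12, without Th2 replicate 2 or naive replicate 3. Processing ended the Th1 call of Rpa2 under 5 alternatives (0.47 to 0.89), and cyclic loess brought it to 1.01, called, in Th2 cells. Rpa3 differed by 0.66 ± 0.16 and 0.30 ± 0.16 and did not reach it. Across the 18 arrays Rpa1 had 1 detected probe, so no other probe of the gene could be set beside it.

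**Figure D3:**
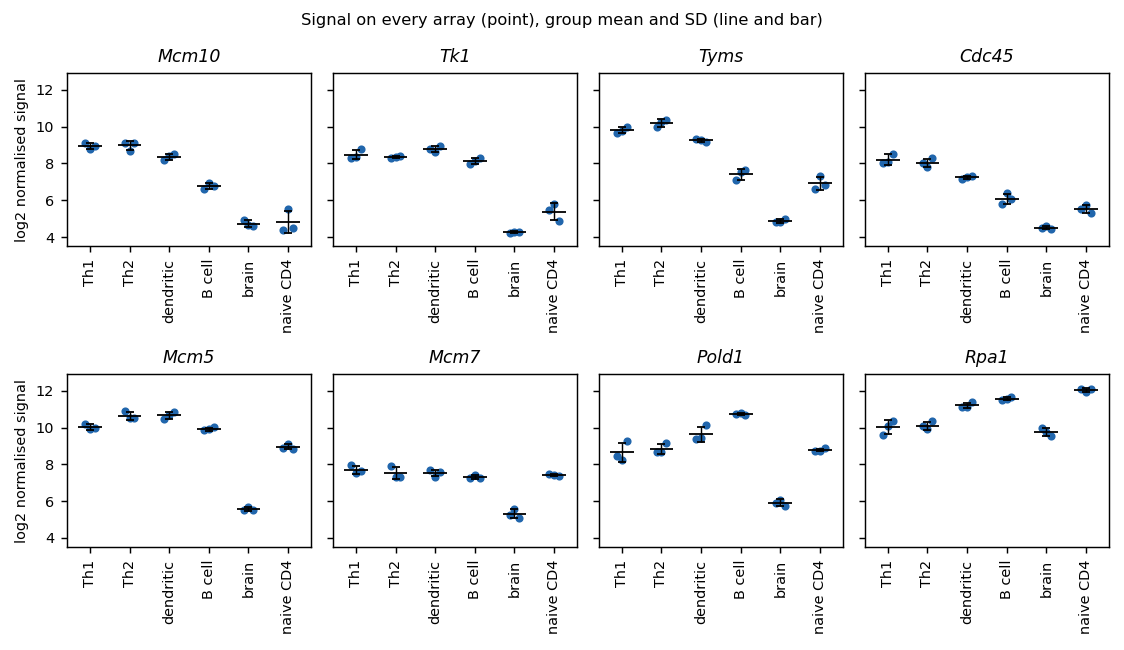
Log2 signal of 8 genes on each array by group, with the mean and SD of the 3 arrays. Mcm10, Tk1, Tyms, Cdc45 and Mcm5 lie lower in naive CD4 T cells than in Th1, Th2 and dendritic cells. The chosen probe of Mcm7 differs little among immune groups, Pold1 is highest in B cells (10.68 to 10.82), and Rpa1 is highest in naive CD4 T cells (11.95 to 12.10). Another Mcm7 probe, not plotted, rose by 1.40 in Th1, 1.19 in Th2 and 1.31 in dendritic cells against naive cells.

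Of the 5 genes of nucleotide synthesis 4 rose in both effector groups. Tyms, thymidylate synthase, which makes dTMP from dUMP, had 9.66, 9.76 and 10.00 in Th1 cells and 9.96, 10.27 and 10.34 in Th2 cells, against 6.63, 7.31 and 6.84 in naive cells. It rose by 2.88 ± 0.17 (adjusted p = 5.24e-10) and 3.26 ± 0.17 (adjusted p = 1.28e-10), with effector and naive arrays more than 2 log2 units apart. Tk1, the thymidine kinase of the salvage route, had 8.32, 8.34 and 8.76 in Th1 cells and 8.28, 8.36 and 8.40 in Th2 cells, against 5.45, 5.80 and 4.89 in naive cells, where it was detected on 2 of 3 arrays. It rose by 3.10 ± 0.18 (adjusted p = 3.84e-10) and 2.97 ± 0.18 (adjusted p = 6.97e-10). The subunits of ribonucleotide reductase, which makes deoxyribonucleotides, rose together. Rrm2, the small subunit, had 7.31, 7.26 and 7.59 in Th1 cells and 7.28, 7.05 and 7.23 in Th2 cells, against 5.16, 5.47 and 5.25 in naive cells, and rose by 2.09 ± 0.14 and 1.90 ± 0.14, while Rrm1, the large subunit, rose by 1.82 ± 0.15 and 1.48 ± 0.15. Dut, the dUTPase that keeps uracil out of DNA, had 5.24, 5.40 and 5.79 in Th1 cells and 5.69, 5.47 and 5.53 in Th2 cells, against 5.70, 5.60 and 5.71 in naive cells. Its groups overlapped, and the differences of -0.19 ± 0.15 (adjusted p = 0.305) and -0.11 ± 0.15 (adjusted p = 0.608) did not pass.

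Behind the fork, Fen1, the flap nuclease of Okazaki fragments, rose in both effector groups, by 1.26 ± 0.16 and 1.30 ± 0.16. Lig1, the ligase that seals those fragments, had 8.05, 8.24 and 7.82 in Th1 cells and 8.01, 8.16 and 7.79 in Th2 cells, against 7.04, 6.91 and 7.11 in naive cells, and its differences of 1.02 ± 0.13 and 0.97 ± 0.13 fell on either side of the fold threshold. Lig1 in Th1 cells was not called without Th1 replicate 2 (0.92) or naive replicate 2 (0.96), and in Th2 cells it was called without Th2 replicate 3 (1.07) or naive replicate 3 (1.01). Under 5 processing alternatives Lig1 was not called in Th1 cells (0.61 to 0.89). Another Lig1 probe rose in both effector groups (1.19 in Th1 and 1.07 in Th2 cells). Further Lig1 probes were not called in Th1 cells (-0.24 and 0.69) or in Th2 cells (-0.18 and 0.65). The large subunits of CAF-1, which places histones on new DNA, parted. Chaf1a had 7.58, 7.39 and 7.67 in Th1 cells and 7.76, 7.79 and 7.64 in Th2 cells, against 5.18, 5.49 and 5.20 in naive cells, and rose by 2.26 ± 0.14 (adjusted p = 5.02e-10) and 2.44 ± 0.14 (adjusted p = 2.15e-10). Chaf1b had 7.72, 7.74 and 8.47 in Th1 cells and 8.18, 7.90 and 8.60 in Th2 cells, against 7.61, 7.66 and 7.84 in naive cells. Its Th1 and naive arrays overlapped, and the differences were 0.28 ± 0.21 (adjusted p = 0.292) and 0.53 ± 0.21 (adjusted p = 0.0395).

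**Figure D4:**
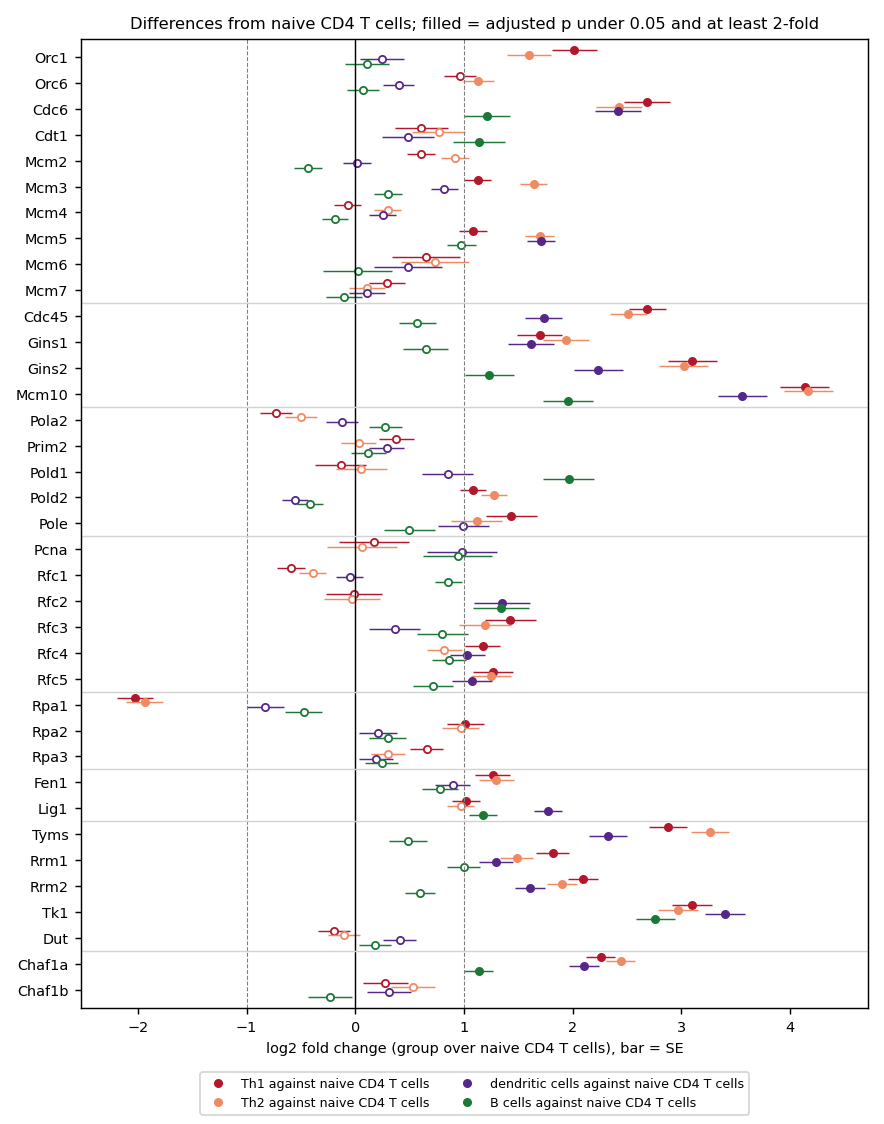
Difference from naive CD4 T cells (log2, with its standard error) of each of the 37 genes in Th1, Th2, dendritic and B cells, by role; filled points passed limma's adjusted p of 0.05 and the 2-fold threshold. Mcm10, Tk1 and Tyms lie at 2.88 to 4.17 in both effector groups, differences plotted for genes undetected in naive cells are fitted values and not bounds, and Rpa1 at -2.03 and -1.94 stands below the rest.

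Th1 cells were next set against Th2 cells, to ask whether the 2 effector fates differ in these genes. By limma, 0 of the 37 genes rose and 0 fell, where 2.18% of all genes tested rose and 2.32% fell. At an unadjusted p under 0.05, 4 genes were higher and 5 lower in Th1 cells, with a median difference of -0.03. Counts at an unadjusted p, here and below, were not taken over all genes tested. Without the fold threshold, 820 of the 12094 genes tested passed the adjusted p as higher in Th1 cells and 850 as lower. Mcm5 and Mcm3 passed the adjusted p without the fold threshold: Mcm5 was lower in Th1 cells by a log2 difference of -0.61 ± 0.13 (adjusted p = 0.00414) and Mcm3 by -0.51 ± 0.13 (adjusted p = 0.0099). For Mcm3 the arrays stood at 8.04, 7.68 and 8.27 in Th1 cells and 8.58, 8.43 and 8.53 in Th2 cells, which did not overlap. Mcm4 followed with -0.37 ± 0.12 (adjusted p = 0.0572), and Orc1 had the largest difference upward, 0.42 ± 0.21 (adjusted p = 0.225). These p-values come from a fit that did not pair Th1 with Th2 replicates, and they do not show that the other genes are alike. Th1 and Th2 arrays with the same replicate number deviated together from their group means over all genes, with correlations of 0.592, 0.316 and 0.675, and among these genes Rfc2, Cdt1 and Pold1 were highest and Mcm6 and Cdc6 lowest in replicate 3 of both groups. With the replicate number as a block over all groups, the counts stayed at 0 and 0. A paired test of Th1 against Th2 cells alone was not run.

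In B cells, 9 of the 37 genes rose against naive CD4 T cells and 0 fell, where 7.30% of all genes tested rose and 6.92% fell. At an unadjusted p under 0.05, 3 genes were lower. The median difference was 0.60 (0.50 with undetected naive levels at their bound), against -0.03 over all genes tested. Under every processing alternative 5 of the 9 kept the call (Tk1, Pold1, Mcm10, Rfc2 and Cdt1). Other cells' markers that moved with B cells were 2 of 4 macrophage markers, called higher (sum 204.6 to 310.5, against 80.0 to 192.6 in naive cells, with Csf1r and Cd14 undetected), and 1 of 2 erythroid markers (241.4 to 1862.1, against 81.9 to 235.0), and their part was not tested. The salvage kinase Tk1 had 7.96, 8.15 and 8.31 in B cells, against 5.45, 5.80 and 4.89 in naive CD4 T cells, and rose by 2.76 ± 0.18 (adjusted p = 2.48e-09). Tyms, the other source of dTMP, had 7.07, 7.52 and 7.64 in B cells, against 6.63, 7.31 and 6.84 in naive cells, overlapping, with a difference of 0.48 ± 0.17 that did not pass. Pold1, the catalytic subunit of polymerase delta, had 10.74, 10.82 and 10.68 in B cells, against 8.75, 8.73 and 8.87 in naive cells. The groups lay almost 2 log2 units apart and B cells were the highest of the 6 groups for Pold1, with a rise of 1.96 ± 0.23 (adjusted p = 3.81e-06). Its partner Pold2 was not higher in B cells (-0.41 ± 0.12, adjusted p = 0.012).

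Further genes that rose in B cells came from several roles. Mcm10 stood at 6.61, 6.93 and 6.76 in B cells, above all naive arrays, and rose by 1.96 ± 0.23. The loader subunit Rfc2 had 10.60, 10.53 and 10.88 in B cells, against 9.10, 9.49 and 9.39 in naive cells, and rose by 1.34 ± 0.26 (adjusted p = 5.28e-04), although its arrays in Th1 and Th2 cells overlapped the naive ones. Cdt1, the licensing factor that geminin inhibits, had 9.95, 9.72 and 9.45 in B cells, against 8.54, 8.50 and 8.67 in naive cells, and rose by 1.14 ± 0.24. Lig1 rose by 1.18 ± 0.13 and Chaf1a by 1.13 ± 0.14. Cdc6 was at least 1.59-fold higher and Gins2 at least 1.44-fold higher, bounds that lie under 2-fold although the fitted differences were called. These calls were lost under 4 alternatives for Cdc6 (fitted differences 0.52 to 0.86), 5 for Gins2 (0.50 to 0.93) and 3 for Chaf1a (0.71 to 0.78), and for Lig1 with an offset of 50 (1.00, just under the threshold) and with the mean of its probes (0.51). Other probes were not called for Gins2 (0.65 and 0.90), Mcm10 (0.72), Lig1 (-0.02, 0.34 and 0.53), Tk1 (1 probe, 0.82) and Rfc2 (1 of 3, 0.94). Rrm1 (1.00 ± 0.15) and Mcm5 (0.97 ± 0.13) lay at the fold threshold without reaching it. Both were called without B-cell replicate 1 (1.10 and 1.01) or naive replicate 2 (1.12 and 1.05), and under median scaling, cyclic loess or the authors' signal. Pcna, undetected in naive cells, was at least 1.29-fold higher and not called, but its fitted difference was called without B-cell replicate 3 (1.13) or naive replicate 2 (1.09).

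In dendritic cells, 15 of the 37 genes rose against naive CD4 T cells and 0 fell, where 13.2% of all genes tested rose and 9.83% fell. At an unadjusted p under 0.05, 2 genes were lower, Rpa1 (-0.83 ± 0.17) and Pold2 (-0.55 ± 0.12). The median difference was 0.85 (0.82 at the bound), against -0.05 over all genes tested. Under every processing alternative 10 of the 15 kept the call (Cdc6, Mcm5, Cdc45, Gins1, Gins2, Mcm10, Tyms, Rrm2, Tk1 and Chaf1a). Mcm10 had 8.20, 8.40 and 8.51 in dendritic cells, against 4.41, 5.51 and 4.52 in naive cells, and rose by 3.56 ± 0.23 (adjusted p = 8.25e-10). Tk1 had 8.80, 8.63 and 8.92 in dendritic cells, the highest of the 6 groups, against 5.45, 5.80 and 4.89 in naive cells, and rose by 3.40 ± 0.18 (adjusted p = 9.36e-11). The remaining helicase activators rose too: Cdc45 by 1.73 ± 0.17, Gins1 by 1.62 ± 0.21, and Gins2 at least 2.89-fold. Of nucleotide synthesis, Tyms had 9.30, 9.29 and 9.17 in dendritic cells, against 6.63, 7.31 and 6.84 in naive cells, and rose by 2.33 ± 0.17 (adjusted p = 7.49e-09), with Rrm2 at 1.61 ± 0.14 and Rrm1 at 1.29 ± 0.15, which was not called with the mean of its probes (0.77). Other probes were not called for Tk1 (0.22, 0.35 and 0.77), Tyms (1 probe, 0.09) and Rrm1 (1 probe, -0.14).

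Of the licensing genes Cdc6 and Mcm5 rose in dendritic cells. Cdc6 had 7.12, 7.06 and 7.09 there and was at least 3.68-fold higher. Mcm5 had 10.44, 10.68 and 10.84 in dendritic cells, against 8.90, 9.10 and 8.84 in naive cells, and rose by 1.71 ± 0.13 (adjusted p = 1.09e-08). Lig1 had 8.75, 8.89 and 8.73 in dendritic cells, its highest group, and rose by 1.77 ± 0.13 (adjusted p = 4.33e-09). That rise rests on 1 probe: the other 3 Lig1 probes were not called (-0.16, 0.70 and 0.79), nor was their mean with it (0.78). Chaf1a rose by 2.11 ± 0.14, Rfc2 by 1.35 ± 0.26, Rfc5 by 1.07 ± 0.18 and Rfc4 by 1.03 ± 0.16. Without dendritic-cell replicate 3, Rfc5 (0.99) and Rfc4 (0.94) were not called. Rfc4 was also lost under 4 processing alternatives (0.61 to 0.84) and Rfc5 under 3 (0.88 to 0.92). For Rfc2 the other 3 probes (0.71, 0.61 and 0.66) and the mean of its probes (0.83) were not called. None of the 5 polymerase and primase genes passed upward by limma, and Pole (0.99 ± 0.24) and Pold1 (0.85 ± 0.23) came nearest. Pole was called without dendritic-cell replicate 2 (1.19) or naive replicate 1 (1.04) or 3 (1.08), and under median scaling (1.23) or cyclic loess (1.08), and Pold1 under median scaling (1.06). Pcna, undetected in naive cells, was at least 1.33-fold higher and not called, but its fitted difference was called without dendritic-cell replicate 3 (1.27) or naive replicate 1 (1.00) or 2 (1.13). The granulocyte, macrophage, B-cell and erythroid markers given above were high on these same 3 arrays, and their part in these rises was not tested.

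Mcm10 and Tk1 rose in all 4 of the Th1, Th2, dendritic and B-cell comparisons, which share the 3 naive arrays, and did so under every processing alternative. Gins2, Cdc6 and Chaf1a also passed in all 4, but their B-cell calls were lost under 3 to 5 alternatives, and other probes of Mcm10, Tk1 and Gins2 were not called in B cells, as given above. Their values side by side were 4.14, 4.17, 3.56 and 1.96 for Mcm10, 2.26, 2.44, 2.11 and 1.13 for Chaf1a, and 3.10, 2.97, 3.40 and 2.76 for Tk1, in Th1, Th2, dendritic and B cells in turn. For Gins2 and Cdc6 the bounds were 5.26, 4.98, 2.89 and 1.44-fold and 4.44, 3.71, 3.68 and 1.59-fold in the same order. Rpa1 had its highest group mean in naive CD4 T cells, the only 1 of the 37 genes to do so, and lay at -2.03, -1.94, -0.83 and -0.48 in that order.

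Dendritic cells were also set directly against B cells. In dendritic cells 6 of the 37 genes rose and 1 fell, where 10.2% of all genes tested rose and 4.53% fell, and the median difference was 0.33, against -0.04 over all genes tested. Tyms had 9.30, 9.29 and 9.17 in dendritic cells, against 7.07, 7.52 and 7.64 in B cells, and rose by 1.84 ± 0.17 (adjusted p = 2.16e-07) with no overlap. Mcm10 rose by 1.60 ± 0.23, Cdc6 by 1.21 ± 0.21, Cdc45 by 1.16 ± 0.17, Rrm2 by 1.01 ± 0.14 and Gins2 by 1.00 ± 0.23. Gins2 and Rrm2 stood at the threshold: Gins2 was not called without dendritic-cell replicate 2 (0.95) or 3 (0.94) or B-cell replicate 1 (0.90), nor Rrm2 without dendritic-cell replicate 1 (0.98) or 2 (0.96) or B-cell replicate 1 (0.87). Chaf1a (0.97 ± 0.14) was called without dendritic-cell replicate 1 (1.07) or B-cell replicate 2 (1.05) or 3 (1.02), and Gins1 (0.97 ± 0.21) without dendritic-cell replicate 1 (1.21) or B-cell replicate 3 (1.02), and both under cyclic loess (1.24 and 1.25). Under every processing alternative Mcm10 and Tyms alone, 2 of the 6, kept the call, although other probes of both were not called (0.87 and 0.00). The calls were lost under 3 alternatives for Cdc45 (0.86 to 0.92) and Cdc6 (0.87 to 0.95), 4 for Rrm2 (0.71 to 0.88) and 5 for Gins2 (0.69 to 0.97). Pold1 had 9.36, 9.41 and 10.12 in dendritic cells, against 10.74, 10.82 and 10.68 in B cells, and fell by 1.11 on the log2 scale (SE 0.23, adjusted p = 0.00115). Pold1 lay at -0.98 without dendritic-cell replicate 1 and at -0.996 under cyclic loess scaling, and was not called in either. Rfc1, the large loader subunit, had its highest group in B cells, at 9.31, 9.29 and 9.08, and differed by -0.91 ± 0.13 (adjusted p = 1.87e-05), under the fold threshold, which it passed under median scaling (-1.22) and with the authors' signal (-1.08).

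Brain, the non-immune tissue of the series, was set against naive CD4 T cells. In brain 21 of the 37 genes fell and 2 rose, where 27.1% of all genes tested fell and 26.2% rose. The median difference was -1.21 with or without bounds, against -0.09 over all genes tested. Under every processing alternative 14 of the 21 kept the call, and Prim2, Rfc1, Rfc5, Rpa2, Fen1, Rrm1 and Tk1 did not. The licensing genes held the largest falls. Mcm6 had 5.39, 5.44 and 5.29 in brain, against 8.94, 8.76 and 8.98 in naive cells, and fell by 3.52 (SE 0.31, adjusted p = 1.82e-08). Mcm2 had 4.82, 4.73 and 4.70 in brain, against 8.40, 8.10 and 8.19 in naive cells, and fell by 3.48 (SE 0.13, adjusted p = 1.14e-13). The differences were -3.37 for Mcm5, -3.20 for Cdt1, -2.86 for Mcm4 and -2.10 for Mcm7, all called, and Mcm3, undetected in brain, was at least 4.9-fold lower. All 6 subunits of the Mcm ring were therefore lower in brain than in naive CD4 T cells. The arrays did not overlap for any of the 6 chosen probes, where 44.7% of all genes tested lay lower in brain without overlap. For Mcm4 the other 2 probes were not called (-0.37 and -0.80).

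Of the 4 helicase activators 0 fell by limma's test with the fold threshold, although Cdc45 (-0.998 ± 0.17, adjusted p = 4.48e-05) and Gins1 (-0.86 ± 0.21, adjusted p = 0.00123) passed the adjusted p. Cdc45 was called without brain replicate 2 (-1.04) or naive replicate 3 (-1.10), or under cyclic loess (-1.10). Mcm10 had 4.94, 4.63 and 4.62 in brain, against 4.41, 5.51 and 4.52 in naive cells, overlapping, and Gins2 and Cdc6 were undetected in both groups, as was Orc1. Of the polymerases, Pold1, Pola2, Pold2 and Prim2 fell, with differences of -2.87, -2.86, -1.99 and -1.32. Prim2 was not called under 5 alternatives (-0.90 to -0.54), nor was its other probe (-0.49). Chaf1b, at 4.38, 4.49 and 4.43 in brain, was undetected there and stood at 7.61, 7.66 and 7.84 in naive cells, at least 8.71-fold lower in brain (adjusted p = 1.7e-10), whereas Chaf1a differed by -0.43 ± 0.14. All 3 RPA genes fell: Rpa1 (-2.28), Rpa3 (-2.05) and Rpa2 (-1.62). Rpa2 was not called under 4 alternatives (-0.95 to -0.68), nor were its other probes (-0.43 and 0.02). Of nucleotide synthesis, Tyms (-2.05) and Rrm1 (-1.27) fell, and Tk1, undetected in brain, was at least 1.74-fold lower, a call that was lost without naive replicate 2 (-0.90) and under 4 processing alternatives (fitted differences -0.99 to -0.29). Rrm1 was not called under 5 (-0.94 to -0.44). The other probes of Tyms (-0.40 and -0.74) and of Tk1 (-0.02, -0.06 and 0.05) were not called. Rrm2, undetected in brain, was at least 1.64-fold lower and not called, but its fitted difference was called without naive replicate 1 (-1.03) and under cyclic loess (-1.48). Fen1 (-1.18), Rfc1 (-1.21) and Rfc5 (-1.34) fell, and were not called under 3 alternatives (-0.88 to -0.34), 3 (-0.80 to -0.56) and 5 (-0.97 to -0.52). Lig1 (-0.94 ± 0.13) was called without brain replicate 2 (-1.004).

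Dut and Pcna went the other way. Dut, the dUTPase gene, had 6.86, 6.82 and 6.84 in brain, against 5.70, 5.60 and 5.71 in naive cells, and rose by 1.17 ± 0.15 (adjusted p = 1.65e-06). Pcna had 5.94, 6.0 and 5.58 in brain, against undetected levels of 4.69, 4.95 and 4.28 in naive cells, and was at least 1.55-fold higher (adjusted p = 0.00257). For both genes the brain and naive arrays did not overlap, as for 40.6% of all genes tested that lay higher in brain. Brain held the highest group mean of both genes. The calls rested on the background step: without background correction Dut differed by 0.87 and Pcna by 0.76, with an offset of 50 by 0.81 and 0.63, and with the mean of its probes Dut differed by 0.77, none of which passed.

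**Figure D5:**
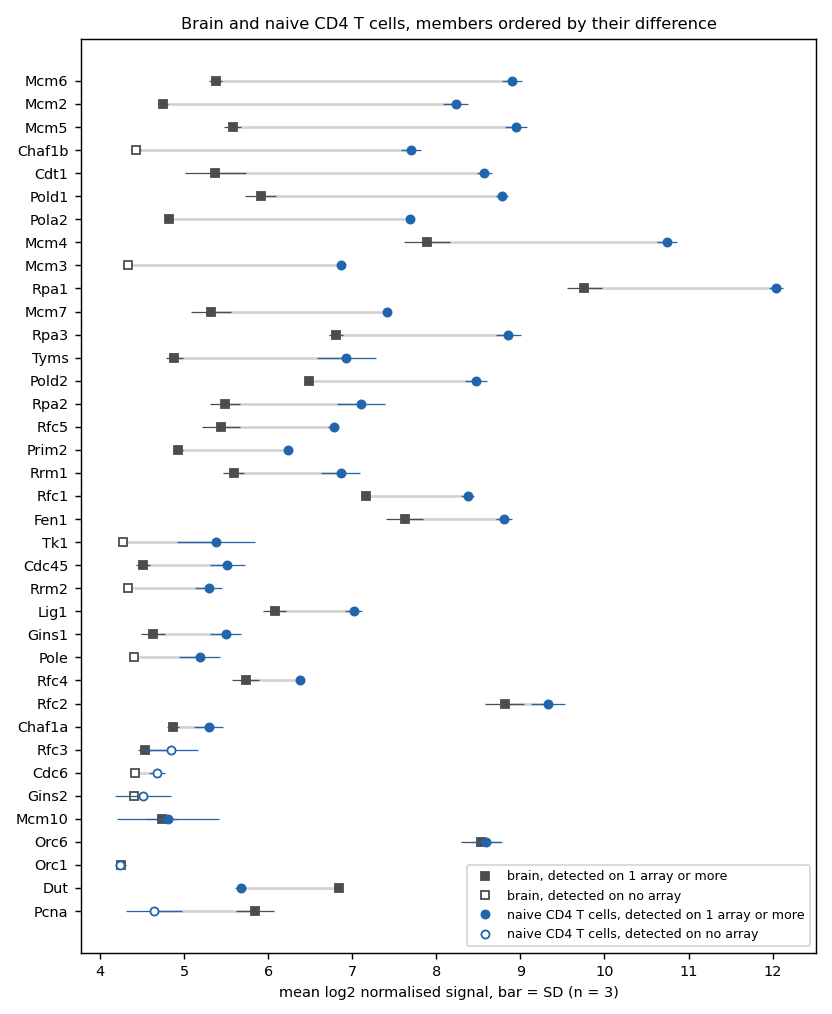
Mean log2 signal of each of the 37 genes in brain (squares) and naive CD4 T cells (circles), with the SD of 3 arrays; open symbols mark groups where the gene was detected on 0 arrays. Brain lies lower for the Mcm ring, the polymerases and RPA, overlaps naive cells for Mcm10, and is undetected with naive cells for Gins2, Orc1 and Cdc6, and lies higher for Dut and Pcna.

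Against the mean of the 5 immune groups, 33 of the 37 genes fell in brain and 1 rose, where 26.6% of all genes tested fell and 25.7% rose. The median difference was -2.18 (-2.12 with bounds), against -0.15 over all genes tested. Mcm5 had 5.51, 5.70 and 5.53 in brain, against group means of 8.95 to 10.65 in immune cells, and fell by 4.46 (SE 0.10, adjusted p = 1.08e-16). Mcm6 (-3.90), Tyms (-3.84), Cdt1 (-3.80) and Mcm2 (-3.70) followed, while Chaf1b and Tk1, both undetected in brain, were at least 9.84-fold and at least 9.49-fold lower. The other Tk1 probes were not called (-0.33, -0.41 and -0.75). Of the 27 other probes of all these genes, 11 were not called in this comparison where the chosen probe was. Dut rose by 1.11 ± 0.12 (adjusted p = 1.06e-07), a call lost under 3 alternatives (0.68 to 0.83). Of the 33 that fell 24 kept the call under every processing alternative, and Prim2, Pole, Rfc1, Rfc2, Rfc3, Rfc4, Rpa1, Rpa2 and Lig1 did not, each being under the threshold in at least 1 of them (-0.99 to -0.35). Orc1 (-0.79 ± 0.16), Orc6 (-0.58 ± 0.11) and Pcna (0.77 ± 0.25) did not reach the fold threshold. Rfc2, which fell by 1.04 (SE 0.20), was not called without brain replicate 1 (-0.91), Th1 replicate 3 (-0.98) or Th2 replicate 3 (-0.99). Orc6 varied least over the groups among the licensing genes, with group means that spanned 1.20 log2 units, against 5.08 for Mcm5.

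Over all 6 groups, 14 of the 37 genes had their highest mean in Th1 cells, 12 in Th2 cells, 4 in dendritic cells, 4 in B cells, 2 in brain and 1 in naive CD4 T cells. The lowest mean lay in brain for 34 genes, in naive CD4 T cells for 2 and in Th1 cells for 1. The median of the 37 group means was 8.04 in Th1 cells, 8.07 in Th2 cells, 7.91 in dendritic cells, 7.47 in B cells, 5.37 in brain and 6.93 in naive CD4 T cells, while the same median over all genes tested stayed between 6.38 and 6.56. All 3 arrays detected 35, 36, 35, 36, 26 and 27 of the 37 genes in the same order of groups. As a description over the 18 arrays, which share groups of 3, the median correlation of 666 gene pairs was 0.78, and it was 0.14 for deviations from the group means. Rfc5 followed the median of the other genes most closely (r = 0.99), and Mcm3 next (0.98). Dut had r = -0.80 over the 18 arrays and -0.09 over the 15 immune arrays, and Pcna -0.44 and -0.05. Both therefore ran against the median only where the brain arrays were included. Rpa1 had r = 0.15 over the 18 arrays and -0.84 over the 15 immune arrays, Pola2 0.72 and -0.68, Rfc1 0.42 and -0.56, and Pold1 0.75 and -0.10.

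Other genes of the same processes, from lists by function, were measured beside these. Of 30 measured further fork and origin genes, 7 rose and 3 fell in Th1 cells and 8 rose and 3 fell in Th2 cells against naive CD4 T cells, with medians of 0.19 and 0.14. For comparison, of all genes tested 13.0% rose and 15.4% fell in Th1 cells, 12.6% rose and 14.4% fell in Th2 cells, 13.2% rose and 9.83% fell in dendritic cells, 7.30% rose and 6.92% fell in B cells, and 26.2% rose and 27.1% fell in brain. In Th1 and Th2 cells the falls of the 30 did not exceed those shares. Those that rose included Top2a, the topoisomerase that untangles sister chromatids (2.84 and 2.73), Clspn, a checkpoint mediator at the fork (2.39 and 2.06), and Pole3, an accessory subunit of polymerase epsilon (2.21 and 2.01). Those that fell were Orc3 (-1.62 and -1.30) and Orc5 (-1.42 and -1.12), further subunits of the origin recognition complex, and Tonsl (-1.38 in Th1 cells and at least 1.85-fold lower in Th2 cells), a fork repair factor. Between Th1 and Th2 cells limma called 0 of the 30, and 2 were higher and 4 lower at an unadjusted p under 0.05. In dendritic cells 3 rose and 2 fell, and in B cells 3 rose and 0 fell (8 lower at an unadjusted p under 0.05), with Pold4, the small subunit of polymerase delta, at 2.11 in B cells. In brain 20 fell and 0 rose against naive cells, and Dbf4, the activator of the Cdc7 kinase, fell by 3.26.

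Of 23 measured further nucleotide genes, 7 rose and 3 fell in Th1 cells and 10 rose and 3 fell in Th2 cells, where 13.0% and 12.6% of all genes rose and 15.4% and 14.4% fell. The share of these genes that fell did not exceed that of all genes. Umps (2.32 and 2.40) and Ctps (2.00 and 2.29), of pyrimidine synthesis, and Adss (2.27 and 1.90), of AMP synthesis, rose. Tk2, the mitochondrial thymidine kinase (-2.50 and -1.90), and Rrm2b, the p53-induced small subunit of ribonucleotide reductase (-1.43 and -1.42), fell. Dck, the deoxycytidine kinase, was at least 1.44-fold and at least 1.45-fold lower. In B cells Impdh1 (-2.52), of GMP synthesis, was the 1 gene to fall and 0 rose (4 higher at an unadjusted p under 0.05). Of all genes tested 7.30% rose and 6.92% fell in B cells. In dendritic cells Dctpp1 (1.67), a dCTP hydrolase, rose, and Impdh1, Atic, Adsl and Gart fell, where 13.2% of all genes rose and 9.83% fell. In brain, where 26.2% of all genes rose and 27.1% fell, 12 fell and 1 rose against naive cells, with Samhd1, a dNTP hydrolase, lower by a log2 difference of -5.15.

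Of 25 measured regulators of the passage from G1 to S, 10 rose and 4 fell in Th1 cells and 10 rose and 5 fell in Th2 cells, where 13.0% and 12.6% of all genes rose and 15.4% and 14.4% fell, so that the falls lay near those shares. E2f1 (2.49 and 2.36), an activating E2F factor, Cdk6 (2.88 and 2.76), a cyclin D kinase, and Uhrf1 (3.27 and 2.93), which maintains DNA methylation behind the fork, rose, and Cdkn1a, the Cdk inhibitor p21, was at least 63.1-fold and at least 48.2-fold higher. The Cdk inhibitor gene Cdkn1b (-1.42 and -1.42) and Ccnd3, cyclin D3 (-1.19 and -2.40), fell. Ccnd3 was also the 1 gene of these 25 called between Th1 and Th2 cells, at 1.20. In dendritic cells 9 rose and 2 fell, led by Ccnd1, cyclin D1, at 6.42, where 13.2% of all genes rose and 9.83% fell. In B cells 5 rose and 2 fell, where 7.30% of all genes rose and 6.92% fell. In brain 12 fell and 2 rose against naive cells, where 27.1% and 26.2% of all genes did, with Cdk2 (-4.46) and E2f2 (-4.04) lowest.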

How the data were processed

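The members, the lists and the tests were chosen with earlier results of these data known. Total RNA was extracted with TRI reagent and labelled with the TotalPrep kit, per the labels' protocols. Per the submitters' processing notes GenomeStudio was among the tools, without a stated version or step. Deposited values are intensity, the bead-averaged signal of each probe on a linear scale without background subtraction, per the file headers. A detection p-value for each probe and array is deposited beside them, per the file headers, and was taken here to rank a signal among negative control beads. The authors' scaled intensity values are the same signals times 1 factor per array, with a mean of 229 on every array and column medians of 38.8 to 61.0. They were used as an alternative. No genome build of the arrays, slide or scan date is given in the sources used here.

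Sample titles gave the groups. No pair of arrays in a group shared more than 1 identical signal. The 3 arrays of a group are given as biological replicates, and what was separate is not stated. The platform annotation gives 1 gene symbol to 34885 of 45281 probes, several to 18, and does not list 10378. Checking 34807 of these against RefSeq names (GRCm38.p6) by gene ID changed 0 symbols.

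Background was corrected with limma 3.58.1 in R 4.3.3 (normexp with control moments inferred from the detection p-values, offset 16), followed by quantile normalization and log2. Detection on 3 or more arrays at p under 0.01 left 23771 probes, and the 19872 of them with 1 symbol gave 12094 genes, each represented by its probe with the highest mean. A model of 6 group means without a block was fitted to all 18 arrays (lmFit, eBayes), with 8 comparisons and Benjamini-Hochberg adjustment over all genes, two-sided. The offset understates folds of dim genes. In simulated data for Th1 against naive cells on 12094 genes, 105 of 200 genes changed 2-fold, 197 of 200 changed 3-fold and 200 of 200 changed 8-fold were called. Genes simulated at 2-fold lay at the fold threshold itself, which fixed their share. The simulation held no background step or detection limit, so it does not show what share of dim genes would be called. Genes were named where they are members, or as the largest calls of the further lists. Promoters were searched with Python 3.11.15 and pandas 2.3.3, and plots were drawn with matplotlib 3.10.9. Replicate numbers were checked for pairing: those of Th1 and Th2 cells had correlations of 0.592, 0.316 and 0.675 and paired these groups, and no other pair of groups had all above 0.1. The number of arrays limits the precision.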

Additional observations from a re-analysis of the deposited data

Results flagged for a closer look

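These values come from detected probes other than the one that stood for the gene. They passed limma's adjusted p and the fold threshold in comparisons where the chosen probe did not. For Mcm6, probe ILMN_1217331 differed by 1.21 in Th1 cells, 1.18 in Th2 cells and 1.67 in dendritic cells (adjusted p = 5.09e-07) against naive CD4 T cells, and probe ILMN_1233857 by 1.10 in Th1 cells and 1.15 in Th2 cells. For Mcm7, probe ILMN_2673889 differed by 1.40 in Th1 cells (adjusted p = 0.00158), 1.19 in Th2 cells (adjusted p = 0.0052) and 1.31 in dendritic cells (adjusted p = 0.0029). For Mcm4, probe ILMN_2752009 had fitted differences of 1.31 in Th1 cells (adjusted p = 0.00193) and 1.22 in Th2 cells (adjusted p = 0.00336). Another Mcm4 probe, ILMN_2752010, was not called in Th1 cells (1.06, adjusted p = 0.0574) or Th2 cells (0.91, adjusted p = 0.103).

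For Lig1, probe ILMN_2657356 differed by 1.07 in Th2 cells (adjusted p = 0.00164) and by -1.15 in brain (adjusted p = 4.64e-04), and probe ILMN_1213101 by -1.02 in brain (adjusted p = 5.14e-05), each against naive cells. For Rfc2, the brain differences were -1.34 for probe ILMN_2424690, -1.34 for probe ILMN_2749484 and -1.06 for probe ILMN_2749487. For Rrm1, probe ILMN_1258715 differed by 1.03 in B cells (adjusted p = 3.17e-06).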

How the results depend on the processing

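All alternatives were planned. No called member changed sign under median scaling, cyclic loess or the authors' scaled signal. No result that was called in the reported fit or in an alternative reversed between them. Members that were not called did change sign under these 3 scalings. Among them were Rfc2 in brain against naive cells (-0.51, and 0.23 under cyclic loess) and Mcm7 in Th2 cells (0.10, and -0.45 under median scaling). The signs of such small differences depend on the scaling. With the replicate number as a replicate block, the counts of genes higher and lower stayed at 21 and 1 (Th1), 19 and 1 (Th2), 9 and 0 (B cells), 15 and 0 (dendritic cells) and 2 and 21 (brain) against naive cells, 0 and 0 for Th1 against Th2, 6 and 1 for dendritic against B cells, and 1 and 33 for brain against immune cells. Leaving out a replicate gave 19 to 21 higher and 1 lower (Th1), 18 to 21 and 1 (Th2), 9 to 12 and 0 (B cells), 14 to 17 and 0 (dendritic cells) and 2 and 20 to 23 (brain) against naive cells, 4 to 8 and 0 to 1 for dendritic against B cells, 1 and 32 to 33 for brain against immune cells, and 0 for Th1 against Th2. Counts that moved by over 1.5 times follow. With the authors' scaled signal 10 genes were higher in Th1 cells and 2 higher and 2 lower in dendritic against B cells. Median scaling gave 2 lower in Th1 and 2 in Th2 cells, 21 higher in B cells, 2 lower in dendritic against B cells and 2 higher in brain against immune cells; cyclic loess gave 0 lower in dendritic against B cells, as did leaving out dendritic-cell replicate 1. An offset of 50 gave 5 higher in B cells, 2 higher in dendritic against B cells and 0 higher in brain against naive and immune cells, and no background correction gave 2, 0 and 0 in the last 3. The mean of a gene's probes gave 1 and 0 higher in brain against naive and immune cells. Without the fold threshold, 3 were lower in Th1, 3 in Th2 and 3 in B cells and 2 in dendritic cells against naive cells, 21 were higher in B cells, 2 were lower in Th1 against Th2, 15 were higher and 4 lower in dendritic against B cells, and 2 were higher in brain against immune cells. Counts over all 12094 genes tested moved as well. Against naive cells 883 were higher in B cells in the reported fit, and 1575 under median scaling. An offset of 50 gave 615 there, and no fold threshold gave 1878. For Th1 cells 1577 were higher in the reported fit and 966 with the authors' signal. Dendritic against B cells had 1235 higher in the reported fit, and 964 with the authors' signal. Those lower there numbered 548 in the reported fit and 528 with the authors' signal. The causes were not tested.

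Median scaling moved the median of all genes to 0.18 in B cells and 0.17 in brain against naive cells; relative to it the 37 genes lay at 0.89 and -0.94, against 0.63 and -1.12 in the reported fit. Cyclic loess moved it to 0.19 in brain and -0.14 in B cells (members relative to it -1.27 and 0.65), and the authors' signal to -0.17 in B cells (0.53). Among all genes called, the share that was higher was 28.0% (Th2), 76.3% (B cells), 70.7% (dendritic cells) and 61.7% (brain) against naive cells, 69.5% for Th1 against Th2, 51.2% for dendritic against B cells and 61.3% for brain against immune cells under median scaling, where the reported fit gave 46.7%, 51.3%, 57.3%, 49.1%, 48.5%, 69.3% and 49.2%. It was 59.2% in brain against naive cells under cyclic loess, and 35.2% (Th1, reported 45.9%), 62.5% (brain against naive) and 64.1% (brain against immune cells) with the authors' signal. A signal near background gives only a bound.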

Other observations

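Some probes of a gene were seen in a single group. Probes ILMN_2611857 and ILMN_2611858 of Tk1 were detected in B cells alone, at log2 means of 5.39 ± 0.19 and 5.47 ± 0.23 (SD, n = 3), while the probe that stood for Tk1 was detected in all 5 immune groups and was highest in dendritic cells.

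Over all 8 comparisons the other probes of the 15 genes that have them differed from the chosen probe in the number that passed. Of the 27 other probes, the chosen probe alone passed for 9 in Th1 cells, 4 in Th2 cells, 12 in dendritic cells, 8 in B cells and 12 in brain against naive CD4 T cells. The other probe alone passed for 4, 5, 2, 1 and 5 in the same order.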
